A study of Equus caballus with 4 samples.

Results

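The genes described here make cholesterol or are switched on by SREBP2, the transcription factor that governs sterol supply: *HMGCS1*, *IDI1*, *FDPS*, *SQLE*, *LSS*, *DHCR7* and *INSIG1*. Members were the non-control probes whose gene name in the array files equals 1 of these 7 symbols, which gave 9 probes for 5 genes (*HMGCS1*, *SQLE*, *LSS*, *DHCR7* and *INSIG1*) of 43603 probes and 13349 named genes in all. *IDI1* and *FDPS* were not found by name. A probe whose file description names isopentenyl-diphosphate isomerase 1 and a probe whose RefSeq accession belongs to *FDPS* are reported beside them and are counted apart.

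The cells were primary equine satellite cells, the resident stem cells of skeletal muscle, isolated from semitendinosus muscle of colts and grown as myoblasts that were made to differentiate in medium with 2% horse serum. GO-treated cells received gamma-oryzanol, a mixture of plant sterol ferulates from rice bran oil, at 125 nM for 24 h after day 2 of differentiation and were harvested on day 3. Control cells went through the same culture and differentiation and received the vehicle, DMSO at 0.04 µl/ml. The study asked how GO alters transcript levels in these cells, and each of 4 two-color arrays carried GO-treated cells in Cy5 and control cells in Cy3. By the study's methods cultures were made from several horses and the line that scored best for viability and fusion was carried forward, so the cells may be those of 1 animal. The sources used here do not say if each array stands for a separate culture, so p-values measure only the spread between these samples, which may be technical. As dyes were never swapped, dye and treatment cannot be told apart, and all 4 arrays lay on 1 slide.

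Cells make cholesterol from acetyl-CoA. The mevalonate steps build isoprenoid units, and the sterol steps join and close them into lanosterol and trim it to cholesterol. When membranes of the endoplasmic reticulum hold little sterol, SCAP carries SREBP2 to the Golgi for cleavage and its freed domain raises transcription of nearly every enzyme of the route. When sterol is plentiful, INSIG1 and INSIG2 hold SCAP back, and as *INSIG1* is itself a target of SREBP2 its transcript is widely used as a readout of the pathway.

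The probe sequences show which transcript stretch each value comes from. They are given for *HMGCS1*, *LSS*, *DHCR7* and *INSIG1*, whose 60 bases can be read without a stop codon in at least 1 frame. Those of *IDI1* and *FDPS*, which were not found by name, can be read so too but are not printed. The *SQLE* probes hold a stop codon in every frame. Positions are those of the array's design on EquCab1, and the strand is that of the probe as listed. The *HMGCS1* probe, at chr21:19091307-19091366, carries the largest ratio among the members, and the *LSS* probe at chr26:598081-598140 and the *DHCR7* probe at chrUn:277772715-277772774 are each the only probe for their gene.
HMGCS1: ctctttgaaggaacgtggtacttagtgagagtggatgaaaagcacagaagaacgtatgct
LSS: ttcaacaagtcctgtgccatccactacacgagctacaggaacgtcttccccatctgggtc
DHCR7: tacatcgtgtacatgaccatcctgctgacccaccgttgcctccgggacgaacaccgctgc
The 4 *INSIG1* probes on chromosome 4, between 95066131 and 95066200, overlap so far that they share 50 bases, which are in capitals below. They are therefore 4 readings of 1 stretch and were not counted as independent.
INSIG1 probe 1: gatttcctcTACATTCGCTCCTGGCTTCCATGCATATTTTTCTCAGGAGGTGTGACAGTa
INSIG1 probe 2: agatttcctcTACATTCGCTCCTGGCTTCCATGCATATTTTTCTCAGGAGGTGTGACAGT
INSIG1 probe 3: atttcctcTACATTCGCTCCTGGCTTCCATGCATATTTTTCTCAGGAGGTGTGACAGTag
INSIG1 probe 4: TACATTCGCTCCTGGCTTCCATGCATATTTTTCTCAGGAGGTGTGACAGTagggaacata

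Values below are log2 ratios, GO-treated over control, from 1 array each. Spots clearly brighter than background made up 63.5% to 68.9% of the non-control spots for control cells and 57.4% to 67.0% for GO-treated cells, and no spot was saturated. A probe was called changed when the Benjamini-Hochberg adjusted p from limma was at most 0.05 and the fold change at least 1.3, which is 0.38 on the log2 scale. Of 26832 tested probes 8.94% were called, and of 9504 genes represented by their brightest tested probe 8.67% were called, 3.3% higher and 5.37% lower. All 10 of the myoblast and myotube markers with a probe, of 13 listed, were above background in control cells on all arrays, among them *MYF5*, *MYOD1*, *MYOG* and *DES*. Of the 5 adipocyte markers with a probe, of 6 listed, 4 (*ADIPOQ*, *FABP4*, *LEP*, *CIDEC*) were at background on every array. The remaining adipocyte marker was above background in control cells on some arrays but not on all. All 5 endothelial markers (*PECAM1*, *CDH5*, *VWF*, *KDR*, *TIE1*) were at background. Of the 5 liver markers, 1 (*CYP7A1*) was above background on all arrays in both channels, and 2 (*APOA1*, *FGB*) were at background in control cells on every array. Of these 10 muscle markers 6 were lower and 0 higher in GO-treated cells, with a median log2 ratio of -0.50. The log2 of their summed signal ran from 17.92 to 18.42 in control and from 17.35 to 17.87 in GO-treated cells. All 6 fibroblast markers with a probe, of 7 listed, were also above background, 1 of them higher, with a median log2 ratio of 0.06, and of the 7 leukocyte markers with a probe 2 (*CD14* and *CD68*) were above background and none was called. In bulk RNA fewer cells of a type and less RNA per cell cannot be told apart, and the part of these shifts in the sterol gene values was not tested.

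None of the members passed both thresholds, neither the 5 found by name nor *IDI1* and *FDPS*, against the 8.67% of all genes. *HMGCS1* passed the adjusted p alone, which 17.2% of all genes did. At an unadjusted limma p under 0.05 there were 5 of the 7 (*HMGCS1*, *IDI1*, *FDPS* and *INSIG1* on the higher side, *SQLE* on the lower), against 34.7% of all genes in either direction. The plain one-sample test put 2 of the 7 under 0.05 and none past both thresholds, which 147 of 26832 tested probes passed. The share of all genes under 0.05 by that test is not given, so the 2 cannot be set against it. Ratios of *HMGCS1*, *FDPS* and *INSIG1* were above 0 on all 4 arrays, as were those of 21.1% of all genes, and *SQLE* was below 0 on all 4, as were 21.0%. For the 7 genes the mean log2 ratio ran from -0.17 for *SQLE* to 0.35 for *HMGCS1*, with a median of 0.21, while the median over all genes was 0.00. Every member's range of processed signals in GO-treated cells overlapped its range in control cells, with signals not centred between arrays. With log2 levels centred on each channel's median, *HMGCS1* did not overlap, at -0.39 to -0.07 in control and -0.03 to 0.39 in GO-treated cells. The other genes found by name still overlapped, and *IDI1* and *FDPS* were not examined in this way. The share of all genes that overlap is not given.

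*HMGCS1* encodes the cytosolic HMG-CoA synthase, which makes HMG-CoA at an early step of the route. Its log2 ratio was 0.16, 0.36, 0.49 and 0.41 on arrays 1 to 4. Array 1 was the lowest and every array was above 0. The mean was 0.35 ± 0.14 (SD, n = 4), a 1.28-fold difference with a 95% interval from 0.18 to 0.52 and an adjusted p of 0.0217 by limma. It thus fell just short of the 1.3-fold threshold, and its interval reaches well past it. The probe was dim: its processed signal was 43.9, 32.3, 40.7 and 34.9 in control and 49.0, 41.4, 57.0 and 46.5 in GO-treated cells, and before background subtraction it stood 2.55 to 3.14 times over its surroundings in Cy3. When the background was corrected with normexp and the dyes were balanced by loess the ratio was 0.15 with an adjusted p of 0.0871, and without array 1 it was 0.42 with an adjusted p of 0.0198, past both thresholds. Without array 2, 3 or 4 the adjusted p by limma was 0.0879, 0.0866 and 0.0632, so that *HMGCS1* no longer passed the adjusted p either. With signals centred on each array's median and no lowess the ratio was 0.22 with an adjusted p of 0.0531 by limma, also not passed. Nor did *HMGCS1* pass it with no filter on dim probes (0.0796), with the plain one-sample test (0.109) or without pairing the channels by array (0.168).

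*IDI1* encodes the isomerase that makes dimethylallyl diphosphate, the starter unit for isoprenoid chains. Its log2 ratio was -0.05, 0.14, 0.61 and 0.39 on arrays 1 to 4. The arrays thus disagreed widely, with array 1 slightly below 0 and array 3 the highest value of any member on any array. The mean was 0.27 ± 0.29 (SD, n = 4), with a 95% interval from 0.01 to 0.54 and an adjusted p of 0.131 by limma. The probe lies at chr29:31630322-31630381.

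*FDPS* encodes farnesyl diphosphate synthase, whose product feeds both sterols and protein prenylation. Its log2 ratio was 0.39, 0.07, 0.29 and 0.23 on arrays 1 to 4. Its signal was 6824, 8403, 7322 and 6604 in control and 8934, 8796, 8935 and 7742 in GO-treated cells, so 3 of the 4 treated signals were higher than every control signal. The mean log2 ratio was 0.24 ± 0.14 (SD, n = 4), with a 95% interval from 0.08 to 0.41 and an adjusted p of 0.0572 by limma. With the signals only centred on each array's median the ratio was 0.35 with an adjusted p of 0.0187, still below the fold threshold. The probe lies on chrUn between 83875149 and 83875312. A further probe at chrUn:83885749-83885808 is described in the files as farnesyl diphosphate synthase but carries an accession that RefSeq gives to *RUSC1*, so it was left out. Its mean log2 ratio was 0.20 ± 0.17.

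**Figure D1:**
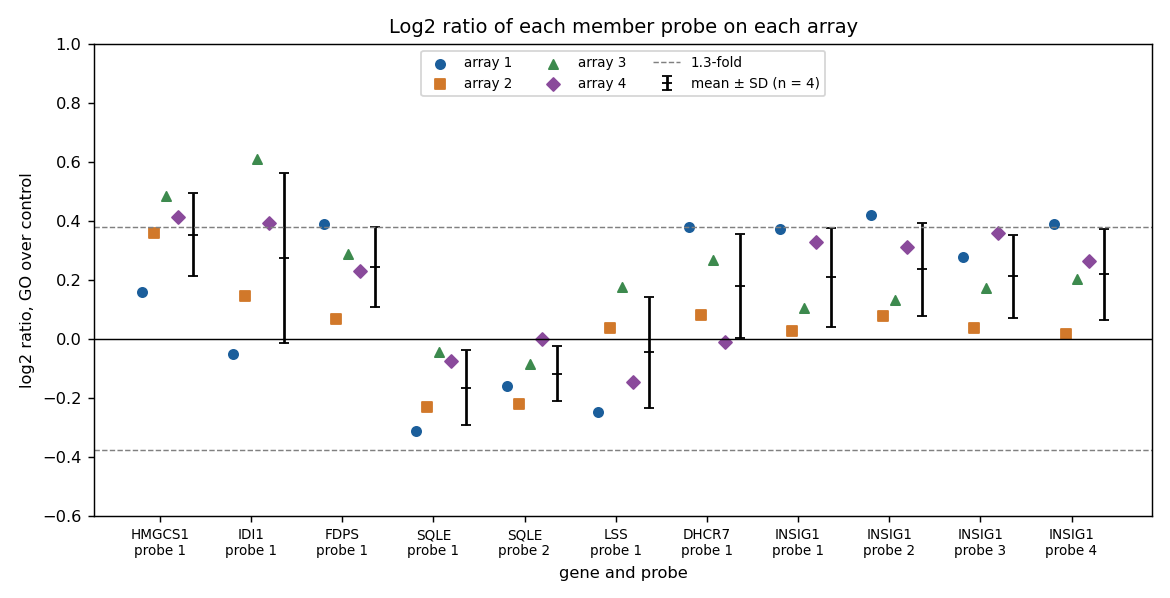
GO over control, as log2 ratio, for each of the 11 member probes, 1 point per array, with the mean ± SD over 4 arrays in black and 1.3-fold marked by dashed lines. *HMGCS1*, *FDPS* and all *INSIG1* probes have 4 points above 0, while *SQLE* and *LSS* have means below 0.

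Of the sterol enzymes among the members, *SQLE* encodes squalene epoxidase, the first oxygen-dependent step and a control point of the route. Its brighter probe, at chr9:62311628-62311687, gave log2 ratios of -0.31, -0.23, -0.05 and -0.07 on arrays 1 to 4. All 4 were below 0, the first pair clearly and the second pair by little. Its signal was 2845, 2061, 2206 and 1974 in control and 2288, 1757, 2137 and 1874 in GO-treated cells. The mean was -0.17 ± 0.13 (SD, n = 4), with a 95% interval from -0.33 to -0.003 and an adjusted p of 0.136 by limma, so a 1.3-fold change lies outside the interval. The adjoining probe, at chr9:62311568-62311627, had a mean of -0.12 ± 0.09 and an adjusted p of 0.221 by limma.

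*LSS* encodes lanosterol synthase, which closes the sterol rings. Its log2 ratio was -0.25, 0.04, 0.17 and -0.15 on arrays 1 to 4, so 2 arrays were above and 2 below 0. The mean was -0.05 ± 0.19 (SD, n = 4), with a 95% interval from -0.24 to 0.15 and an adjusted p of 0.732 by limma. This probe was the other dim one, at 28.8 to 46.2 in control cells, and its sign turned to 0.02 without array 1.

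*DHCR7* encodes 7-dehydrocholesterol reductase, which makes cholesterol in the final step of 1 of the branches. Its log2 ratio was 0.38, 0.08, 0.27 and -0.01 on arrays 1 to 4. Its signal was 690, 940, 462 and 571 in control and 896, 994, 557 and 567 in GO-treated cells. The control level thus differed 2.03-fold between arrays, far more than it differed between the channels of any array. The mean ratio was 0.18 ± 0.18 (SD, n = 4), with a 95% interval from -0.01 to 0.37 and an adjusted p of 0.160 by limma.

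*INSIG1*, the sterol-sensing brake, gave log2 ratios of 0.37, 0.03, 0.10 and 0.33 on arrays 1 to 4 with its brightest probe. Its signal was 187, 273, 227 and 195 in control cells and 242, 278, 244 and 245 in GO-treated cells. The treated signals lay close together, within 1.15-fold, whereas the control signals spread over 1.46-fold, and the ratio, in which the control signal is the denominator, was largest on the arrays with the lowest control signal. The mean was 0.21 ± 0.17 (SD, n = 4), with a 95% interval from 0.02 to 0.39 and an adjusted p of 0.109 by limma. The other 3 overlapping probes gave adjusted p-values from 0.0759 to 0.0880 by limma, and all 4 probes were higher on every array.

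**Figure D2:**
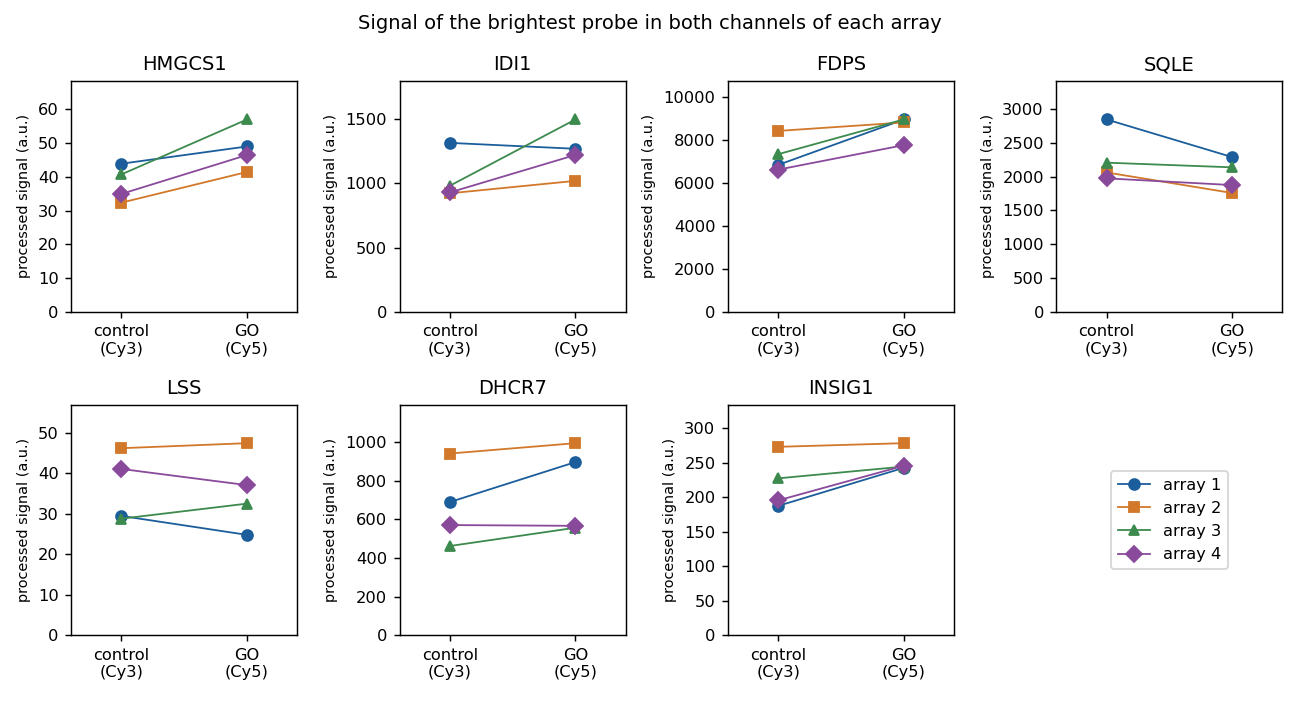
Processed signal (arbitrary units, linear axis from 0) of each member's brightest probe in the control (Cy3) and GO (Cy5) channels, with a line joining the channels of 1 array. Panels have their own scales and probes are not comparable in level. *HMGCS1*, *FDPS* and *INSIG1* lines all rise, *SQLE* lines all fall and *LSS* lines cross.

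The 3 mevalonate enzymes had the highest mean ratios of the 7 genes. From the highest, the order ran *HMGCS1*, *IDI1*, *FDPS*, *INSIG1*, *DHCR7*, *LSS* and *SQLE*, and neighbours in this order differed by less than 1 SD of their difference over the arrays. *HMGCS1* and *IDI1* differed by 0.08 ± 0.16, *FDPS* and *INSIG1* by 0.03 ± 0.12. The ends of the order were apart on every array: *HMGCS1* exceeded *SQLE* by 0.52 ± 0.05 (SD, n = 4) and *IDI1* exceeded *SQLE* by 0.44 ± 0.17. These pairs were picked from 21 after their values were seen and were not tested.

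The arrays split the members in 2 ways. *FDPS*, *DHCR7* and *INSIG1* had their highest ratio on array 1, whereas *HMGCS1*, *IDI1*, *SQLE* and *LSS* had their lowest there. Array 3 gave the highest ratio for these last 4 genes, and no member was highest on array 2 or 4. Array 1 was the highest for 37.2% of all genes and the lowest for 28.7%, so extreme values there were common throughout.

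The members' levels over the 8 channels did not move together either. Pearson's r of each gene with the mean profile of the 5 genes found by name was 0.81 for *INSIG1*, 0.79 for *LSS*, 0.74 for *DHCR7*, -0.04 for *HMGCS1* and -0.71 for *SQLE*, each gene being part of that mean. Of 9496 other genes, *HMGN4* (r = 0.98), *MMAB* (0.97), *KPRP* (0.97) and *OR4K35* (0.97) were among the 5 whose profiles were most like that mean. *OR4K35* was named through its gene number, and the *KPRP* probe is described only as a predicted keratinocyte proline-rich protein-like transcript. These correlations describe 8 channels on 4 shared arrays and carry no test.

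Among 31 other genes of sterol synthesis and its control, 30 were tested. Of these, 1 was called on the higher side, where 3.3% of all genes were called. None was called on the lower side, where 5.37% of all genes were. At an unadjusted limma p under 0.05 there were 13 of these 30 (11 higher and 2 lower), beside 34.7% of all genes in either direction. *SREBF1*, which encodes the related factor SREBP1 that drives fatty acid synthesis, gave 0.68, 0.22, 0.28 and 0.40 on arrays 1 to 4. Its mean was 0.39 ± 0.20 (SD, n = 4), adjusted p 0.0285 by limma, but in the Cy5 channel its probe cleared background on only 3 arrays, and the ratio was 0.08 with an adjusted p of 0.266 by limma after normexp and loess. Its call was lost whichever single array was left out.

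Of the 5 other mevalonate enzymes tested 4 had a mean ratio above 0 and none was called. *ACAT2*, which condenses acetyl-CoA at the entry of the route, had a mean log2 ratio of 0.28 ± 0.09. It passed the adjusted p alone (0.0284 by limma), as 17.2% of all genes did in either direction. *MVK*, mevalonate kinase, had a mean of 0.25 ± 0.26 with an adjusted p of 0.128 by limma.

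Of the 9 other sterol enzymes tested 7 had a mean ratio above 0 and none was called. *FDFT1*, which makes squalene, had a mean log2 ratio of 0.11 and *CYP51A1*, which removes a methyl group from lanosterol, 0.16. The 2 with a mean below 0 were *TM7SF2* and *MSMO1*. *TM7SF2*, a sterol reductase, had a mean of -0.27 ± 0.18 with an adjusted p of 0.0685 by limma. The methyl oxidase *MSMO1* had a mean of -0.37 ± 0.66, which rested on array 1, where the ratio was -1.31.

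Among regulators and uptake genes, *INSIG2*, the partner of *INSIG1*, had a mean of 0.32 ± 0.23 (adjusted p 0.0605 by limma). *SREBF2* itself had a mean of 0.16 ± 0.16 (adjusted p 0.176 by limma) and *SCAP* -0.08 ± 0.11. *NPC1*, which exports cholesterol from lysosomes, had a mean of -0.23 ± 0.10 and passed the adjusted p alone (0.0476 by limma). It was the only gene of the list to do so on the lower side, where 891 of all 9504 genes did. No probe was matched to *IDI2*.

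The 37 tested genes of sterol synthesis and its control comprise the members, 14 other enzymes and 16 regulators or uptake genes. Over all 37 the mean log2 ratio was above 0 in 28 genes (75.7%), compared with 50.5% of all genes. The median was 0.16 and that over all genes 0.00, and it was 0.09 after normexp and loess and 0.11 with signals centred on each array's median without lowess. On all 4 arrays 13 genes (35.1%) were above 0, against 21.1% of all genes, and 3 were below 0 (8.11%), against 21.0%. The shift was small beside the threshold, as 36 of the 37 means lay below a 1.3-fold difference, and the list was drawn up with results of these data known, so these counts are a description.

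**Figure D3:**
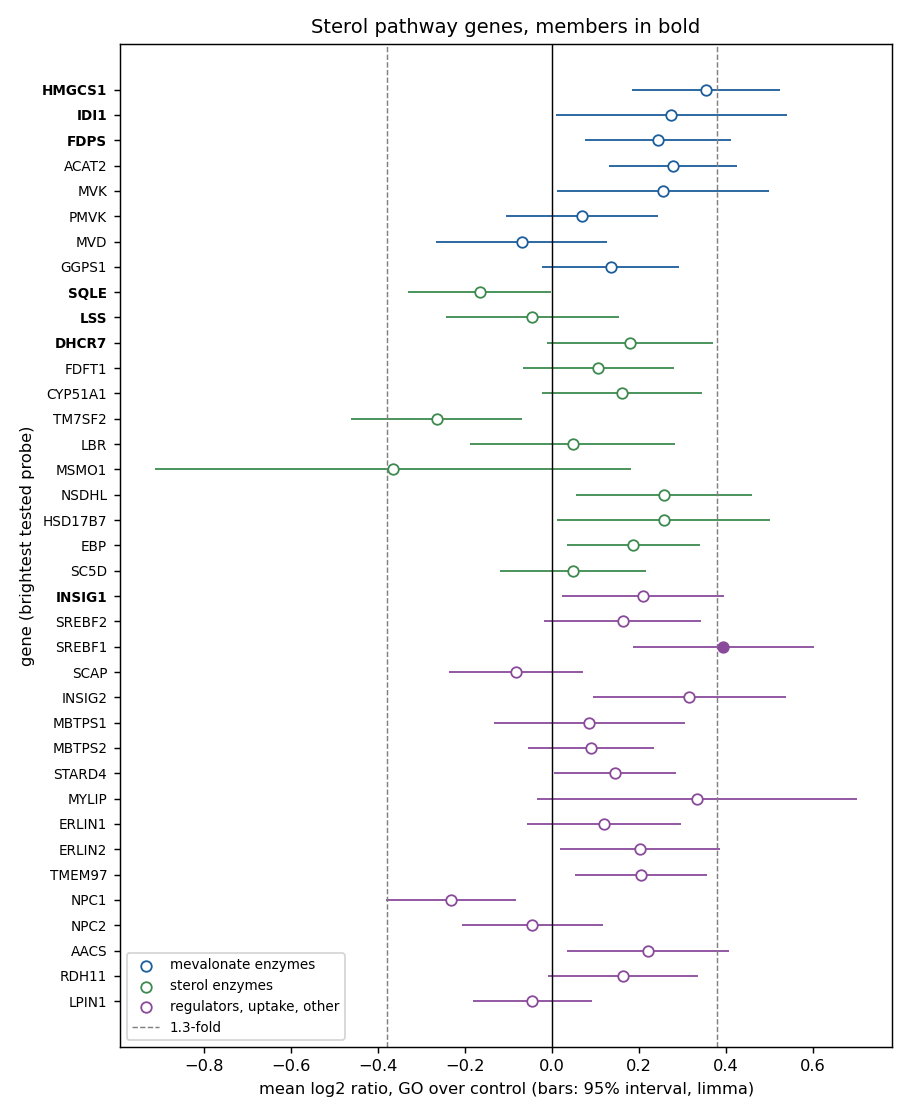
Mean log2 ratio, GO over control (brightest tested probe) for the 37 tested genes of sterol synthesis and its control. Bars are 95% intervals from limma over 4 arrays, colors give the role, and the 7 members are in bold. The filled point (*SREBF1*) passed both thresholds, dashed lines mark 1.3-fold, and 28 means lie to the right of 0.

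**Figure D4:**
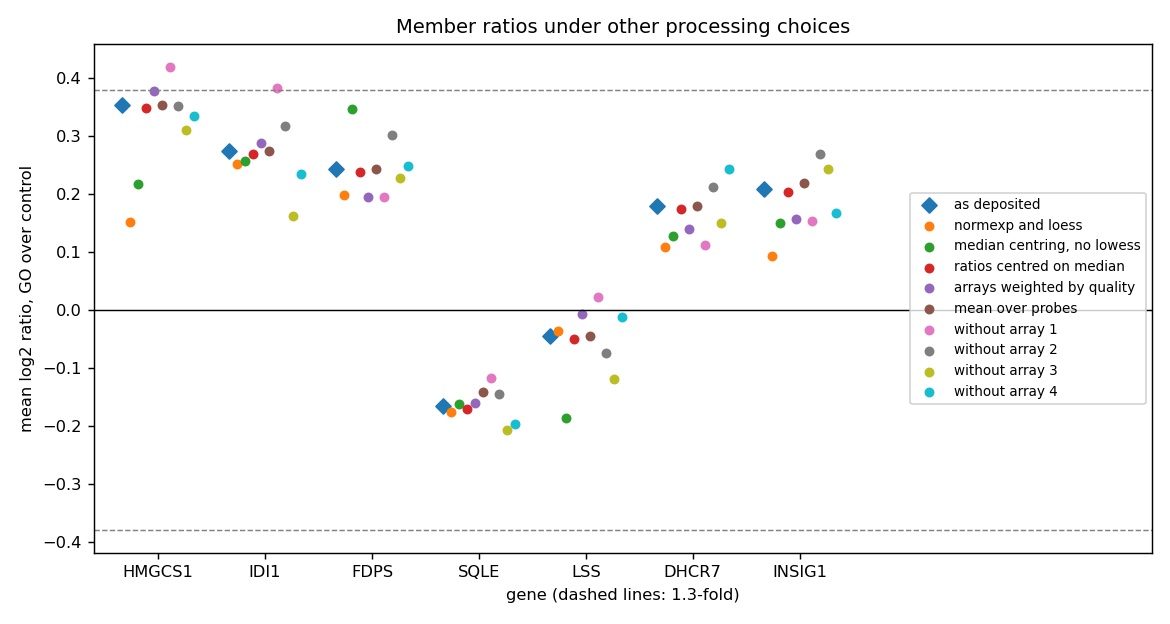
Mean log2 ratio of each member under the deposited ratios (diamonds) and under 9 other processing choices (circles), with dashed lines at 1.3-fold. *HMGCS1* ranges from 0.15 to 0.42 and *LSS* from -0.19 to 0.02. All genes except *LSS* keep their sign in all of them.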

How the data were processed

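Total RNA (RNA integrity number of at least 9.2) was hybridised on Agilent horse 4x44K arrays. The deposited files are scanner outputs of Feature Extraction 10.10.1.1 per the file headers, and a series table of log10 ratios. The study's methods name another version of this software. The authors' software subtracted background, balanced the dyes by lowess and wrote processed intensity per channel and a log10 ratio of red over green. All 180880 values of the series table equalled those of the arrays (tolerance 1e-09 on the log10 scale), so direction and scale are known. Ratios were converted to log2, control and outlier spots were left out and spots of a probe averaged. Probes that Feature Extraction marked as well above background on all 4 arrays, in Cy5 or in Cy3, were tested with limma 3.58.1 (R 4.3.3) against 0, two-sided, with Benjamini-Hochberg adjustment over 26832 probes. The script was tested on simulated data. The GO and control channels of an array were paired by the ratio. Each gene stands for its brightest tested probe. Signals are intensities, so depth has no count, and the number of arrays limits precision.

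Names came from the files for 24960 probes, from RefSeq by gene number for 1684, by accession for 437 and by description for 4, and 16518 stayed unnamed. RefSeq served for names only, and a planned search of promoters for motifs was not run. Members and gene lists were chosen with earlier results of these data known. Genes named in the text are all members, any other gene of the list past both thresholds or with only dim probes, *SREBF2*, *SCAP*, *INSIG2*, *FDFT1* and *CYP51A1*, and genes among the 5 most like the members' mean. *ACAT2*, *MVK*, *TM7SF2*, *MSMO1* and *NPC1* were added after their values were seen. Some genes of the lists are not reported here, and counts over the lists leave them out. Alternatives covered background and dye correction, centring, the filter, the test, array weights, pairing, the probe rule, the fold threshold and each array left out.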

Additional observations from a re-analysis of the deposited data

How the results depend on the processing

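Under the 15 alternatives *HMGCS1* ranged from 0.15 to 0.42, *IDI1* from 0.16 to 0.38, *FDPS* from 0.19 to 0.35, *INSIG1* from 0.09 to 0.27, *DHCR7* from 0.11 to 0.24 and *SQLE* from -0.21 to -0.12 on the log2 scale, and these 6 genes kept their direction in each. *LSS* ranged from -0.19 to 0.02 and changed sign to 0.022 without array 1. With the adjusted p alone *HMGCS1* was called at 0.35 and the count of members higher was 1, and without array 1 it was called at 0.42, the count then also being 1, so that it ran from 0 to 1 when single arrays were left out, with *HMGCS1* between 0.31 and 0.42 and *LSS* between -0.12 and 0.022. The cause was not tested. Of the members' adjusted p-values by limma, the range over all alternatives was 0.00953 to 0.168 for *HMGCS1* and 0.0187 to 0.264 for *FDPS*. The median of the 7 members was 0.11 and that of the 37 genes 0.09 after normexp and loess.

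The count of other sterol genes higher, 1 as reported, was 0 with arrays weighted by quality, with no filter on dim probes, after normexp and loess, with the plain one-sample test and with both channels required above background (*SREBF1* then was not tested), and 0 to 1 with an array left out. With the adjusted p alone 2 of the 30 genes were higher and 1 lower, beside 747 higher and 891 lower of all 9504 genes. *SREBF1* lost its call in 10 alternatives, and *INSIG2* gained it without array 1 (0.41, adjusted p 0.0320 by limma).

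Of all probes, 2399 were called (894 higher, 1505 lower). With the adjusted p alone 4859 were called (2224 higher, 2635 lower), with no filter 908 (284 and 624), after normexp and loess 1297 (481 and 816), and with the plain one-sample test 147 (29 and 118), while centring without lowess gave 1406 higher. Leaving out single arrays gave 1566 to 2430 (509 to 994 higher, 1049 to 1436 lower). Without the pairing of channels by array (no replicate block) 781 were called (205 higher, 576 lower), with 0 members and 0 other sterol genes higher. The slide could not be fitted as a block, since 1 slide held all arrays. The dim *HMGCS1* and *LSS* probes stood 1.65 to 3.27 times over the local background, which limits what their ratios can show.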
